A study of Mus musculus with 12 samples.

Results

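The secondary and tertiary granule genes of neutrophils were followed in M-MDSCs (monocytic myeloid-derived suppressor cells) of young and aged mice. They were named as a fixed list of 10 genes, Ltf, Camp, Ngp, Lcn2, Chi3l3, Cd177, Mmp8, Mmp9, Lyz2 and Ltb4r1, and all 10 were found among the 23420 genes of the count table. The cells were flow-sorted as CD11b+Ly6G-Ly6Chi from tibial bone marrow of male C57BL/6JNIA mice, an inbred strain from an aging colony, and each mouse gave 1 RNA-seq library, 6 from young mice aged 6 months and 6 from aged mice aged 24 months. The question addressed by the comparison was how normal aging changes the transcriptome of these cells.

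Neutrophils fill their granules in a fixed order as they mature. Azurophil (primary) granules are made first, in promyelocytes, specific (secondary) granules follow in myelocytes and metamyelocytes, and gelatinase (tertiary) granules come last, in band cells. Transcripts of the specific granule proteins peak in the myelocyte and metamyelocyte stages under C/EBP epsilon and then decline, and the proteins, which bind iron, kill microbes or digest matrix, are stored until release. Lyz2 and Chi3l3 are also known in monocytes and macrophages, and Ltb4r1 encodes a surface receptor and not a granule protein.

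Library totals were 8737941 to 16300374 fragments in aged and 4613239 to 9079237 in young mice, and the biological coefficient of variation was 15.7%. Young replicates 5 and 6 stood apart from the other young libraries in how read counts depended on exon length, with slopes of 0.21 and 0.19 log2 units per doubling of length, against 0.029 to 0.10 in the other young mice and -0.15 to -0.024 in aged mice. The difference of each granule gene is therefore also given without these 2 libraries, a choice made after seeing the data. Young libraries also fell into close pairs. The chi-square per gene between 2 libraries was 1.67 for young 1 and 2, 2.55 for young 9 and 10 and 3.94 for young 5 and 6. It was 4.36 to 5.57 between the first 2 pairs and 20.8 to 35.5 between young 5 or 6 and the others. What the paired libraries share is not stated, and the fits treat all 6 young libraries as independent. The sorted population was checked against marker genes. CPM here are counts scaled to the library total after TMM normalization. Of 15 monocyte genes, Ly6c2 was the most abundant, at 605 to 799 CPM in aged and 367 to 595 CPM in young mice, followed by Emb (433 ± 76.1 and 378 ± 63.6 CPM, SD, n = 6 per age) and Csf1r (141 ± 37.0 and 134 ± 15.9 CPM), with lower values for Ccr2 (31.2 ± 22.2 and 37.1 ± 14.3 CPM) and Irf8 (6.61 ± 5.17 and 4.43 ± 2.29 CPM). The 15 genes together reached 1315 to 1659 and 1205 to 1403 CPM, and S100a8, which is abundant in neutrophils and is also made by Ly6Chi monocytes, reached 35816 ± 4707 and 21062 ± 6712 CPM. The 15 mature neutrophil markers, S100a8 included, summed to 57410 to 80722 and 28228 to 57835 CPM. Retnlg stood at 4906 ± 1035 and 3352 ± 836 CPM and Cxcr2 at 1517 ± 246 and 1278 ± 230 CPM, with lower values for G0s2 (68.1 ± 14.9 and 78.7 ± 8.14 CPM). Summed levels were thus higher for the neutrophil than for the monocyte markers at both ages. M-MDSC is kept as the study's name for the cells. Ly6g was not analysed here. In these bulk libraries, fewer cells of a type and less RNA per cell cannot be told apart.

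Promoter sequence was available from RefSeq (GRCm38.p6) for 9 of the 10 genes, as windows of 250 bases before to 50 bases after the start of the gene. The letters TTNNGCAA, a core of the site bound by C/EBP factors, were searched on both strands and occurred in 4 of the 9 windows, against 10.8% of 32851 windows of the same length. Shown are the 250 bases upstream of these 4 genes, 5′ to 3′ on the strand of the gene, with the match in capitals.
Ltf, chr9:111019042-111019291, plus strand: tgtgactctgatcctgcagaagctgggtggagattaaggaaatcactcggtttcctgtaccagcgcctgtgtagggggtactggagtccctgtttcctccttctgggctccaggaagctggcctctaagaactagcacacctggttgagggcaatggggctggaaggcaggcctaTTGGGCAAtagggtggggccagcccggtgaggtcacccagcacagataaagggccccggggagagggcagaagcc
Ngp, chr9:110419558-110419807, plus strand: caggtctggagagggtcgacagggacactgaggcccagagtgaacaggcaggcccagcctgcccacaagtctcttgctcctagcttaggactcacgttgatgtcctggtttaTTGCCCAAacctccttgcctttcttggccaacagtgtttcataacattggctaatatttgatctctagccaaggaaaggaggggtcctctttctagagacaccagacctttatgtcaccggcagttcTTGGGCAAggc
Lcn2, chr2:32387740-32387989, minus strand: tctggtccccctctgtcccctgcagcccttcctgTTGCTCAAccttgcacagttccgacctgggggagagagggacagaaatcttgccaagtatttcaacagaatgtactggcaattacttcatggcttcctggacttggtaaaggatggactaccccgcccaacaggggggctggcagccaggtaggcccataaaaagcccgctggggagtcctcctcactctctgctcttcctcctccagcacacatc
Mmp8, chr9:7558179-7558428, plus strand: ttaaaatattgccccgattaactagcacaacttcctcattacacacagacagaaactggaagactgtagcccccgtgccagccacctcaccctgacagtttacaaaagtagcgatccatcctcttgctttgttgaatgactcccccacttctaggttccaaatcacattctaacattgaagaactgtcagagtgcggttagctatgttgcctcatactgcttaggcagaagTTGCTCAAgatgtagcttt
The match lay 75 bases before the start in Ltf, 138 and 11 bases before it in Ngp, 216 bases before it in Lcn2 and 19 bases before it in Mmp8. The Ltf match and the nearer Ngp match had the same letters, TTGGGCAA, and the distant Ngp match was the same run read on the opposite strand. The letters GAGGAA, a core of the PU.1 site that overlaps none of the above matches, occurred in 5 of 9 windows, against 28.3% of all windows. They are shown for the pair of genes whose levels did not overlap between ages, Cd177 (192 bases before the start) and Ltb4r1. In Ltb4r1 the match lay on the opposite strand, 129 bases before the start, and so reads TTCCTC on the strand of the gene. A second match on that strand lay 3 bases after the start, outside the stretch shown.
Cd177, chr7:24760312-24760561, minus strand: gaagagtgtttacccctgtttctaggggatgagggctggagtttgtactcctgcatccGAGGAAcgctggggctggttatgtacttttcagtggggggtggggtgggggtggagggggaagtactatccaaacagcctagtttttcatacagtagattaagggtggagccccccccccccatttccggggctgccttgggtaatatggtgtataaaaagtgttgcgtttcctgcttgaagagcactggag
Ltb4r1, chr14:55765712-55765961, plus strand: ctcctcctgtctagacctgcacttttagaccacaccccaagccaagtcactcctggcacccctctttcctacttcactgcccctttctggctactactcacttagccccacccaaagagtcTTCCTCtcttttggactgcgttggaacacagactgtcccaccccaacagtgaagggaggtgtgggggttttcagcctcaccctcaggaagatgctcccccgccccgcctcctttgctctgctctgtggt
These matches describe the sequence and were not tested as binding sites.

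The granule genes were among the most abundant transcripts of the sorted cells. Together they took 9.51 to 12.2% of all counts in aged and 9.12 to 11.1% in young mice, and Ngp alone took 3.30 to 4.35% and 2.73 to 3.54%. Per kilobase of exon, Ngp ranked 2 to 3 among all tested genes in every library, Lcn2 5 to 6, Lyz2 4 to 9, Ltf 7 to 11 and Camp 9 to 11, whereas Ltb4r1 ranked 161 to 245.

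In aged mice the order of levels was Ngp (34134 ± 2903 CPM per kb, SD, n = 6), Lcn2 (13254 ± 1193), Lyz2 (10616 ± 1380), Ltf (7623 ± 1196), Camp (7399 ± 1060), Mmp9 (3084 ± 340), Chi3l3 (2834 ± 354), Cd177 (2220 ± 161), Mmp8 (1897 ± 193) and Ltb4r1 (311 ± 8.38). The ranges of Ngp and Lcn2, of Camp and Mmp9, and of Mmp8 and Ltb4r1 did not overlap, and those of the other neighbours did. Ltf stood above Camp in only 1 of 6 mice, aged replicate 7, so that the order of their means was the reverse of that in the other aged mice. Mmp9 stood above Chi3l3 in 3 of 6. In young mice the order was Ngp (26653 ± 3808 CPM per kb), Lyz2 (11680 ± 1671), Lcn2 (10429 ± 1408), Ltf (7922 ± 537), Camp (5336 ± 1505), Chi3l3 (2786 ± 227), Mmp9 (2586 ± 422), Mmp8 (1750 ± 242), Cd177 (1717 ± 176) and Ltb4r1 (216 ± 29.0). Chi3l3 stood above Mmp9 in 4 of 6 young mice and Mmp8 above Cd177 in 4 of 6, so that neither pair differed beyond its spread. Chi3l3 and Lyz2 have near-identical neighbours (Chi3l4 and Lyz1), and fragments that fitted both were dropped during counting, which leaves the absolute level of both uncertain.

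**Figure D1:**
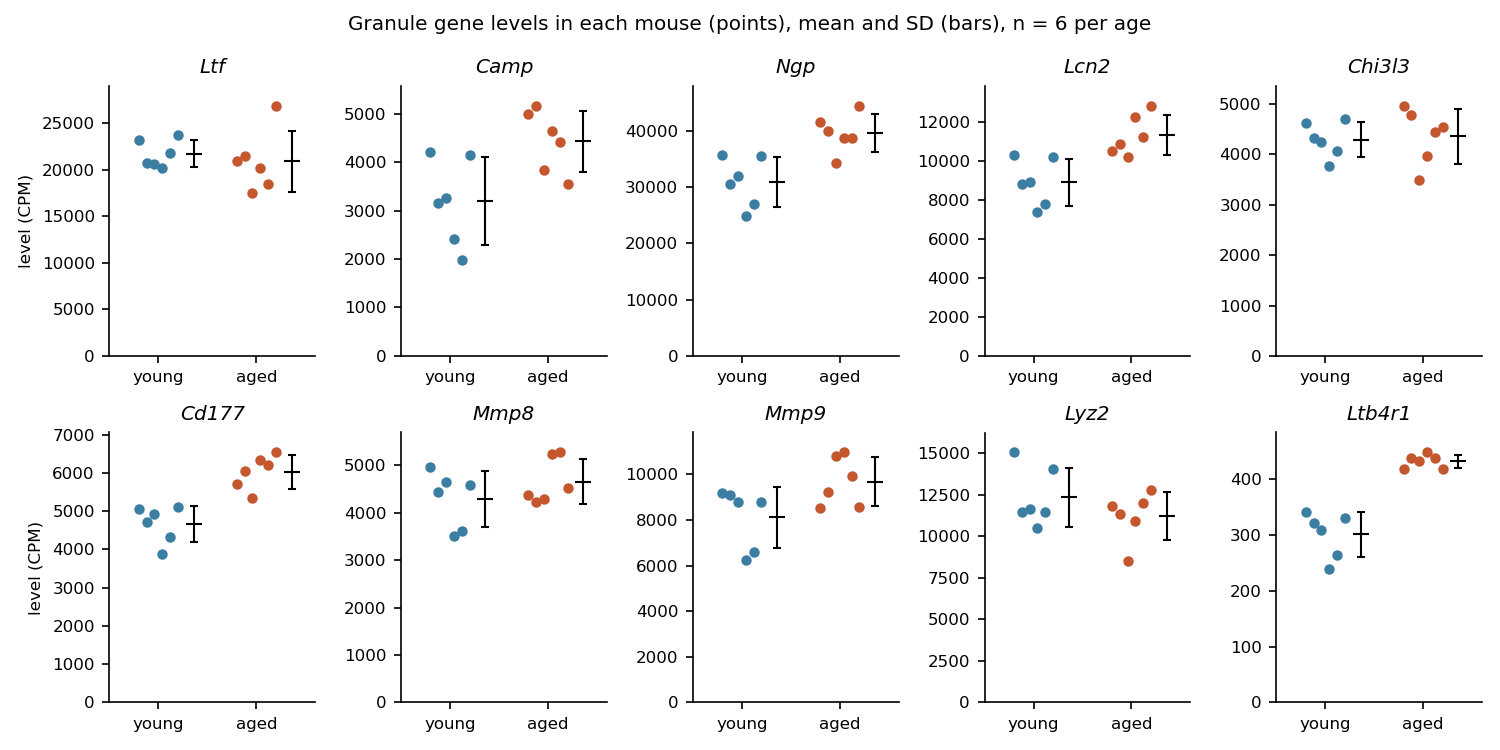
Level of each granule gene in CPM (vertical axis, from 0) in the 6 young and 6 aged mice (points), with the mean and SD beside them. Cd177 and Ltb4r1 are the genes whose young and aged points do not overlap, and Ltf, Chi3l3 and Lyz2 lie at similar heights in both ages.

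In aged mice, 5 of the 10 granule genes were higher than in young mice, namely Camp, Ngp, Lcn2, Cd177 and Ltb4r1, and none was lower (edgeR's quasi-likelihood test, Benjamini-Hochberg adjusted p under 0.05 over the 9742 genes tested). DESeq2 and limma-voom each called 5 higher and 0 lower. Before adjustment Mmp9 would join the 5 genes, and none would be lower. The rises were modest, from 1.27-fold to 1.44-fold. Among all genes tested, 22.4% were called higher and 23.0% lower. The median log2 fold change of the 10 genes was 0.30, against 0.0062 over all genes, and 8 of 10 were positive. Levels did not overlap between ages for 2 of 10, both higher in aged mice, against 9.68% of all genes with no overlap in that direction. Of all calls, 49.4% were higher in aged mice, and 37.8% when libraries were scaled by their totals without TMM factors, where 5 granule genes were again called higher, against 17.3% of all genes. Without young 5 and 6, 2 granule genes were called higher, Cd177 and Ltb4r1, against 14.1% of all genes. With a correction of each library for gene length, described after the single genes, 2 were called higher and 1 lower, against 18.3% and 16.6% of all genes, and the median of the 10 genes was 0.0046.

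Ngp, neutrophilic granule protein, a cathelicidin-related protein of specific granules, was the most abundant granule transcript. It lies on chr9:110419808-110423012 (mm10, plus strand, 4 exons). It ranged from 34273 to 44393 CPM in aged mice (median 39395) and from 24875 to 35745 in young mice (median 31259), so that the ages met only at the lowest aged and the highest young mice. The difference was 0.36 (log2, SE 0.113) with an adjusted p of 0.0181 by edgeR. Without young replicates 5 and 6, which held the lowest Ngp, it was 0.23 (adjusted p = 0.0685) and no longer called. It was 0.063 with the length correction (adjusted p = 0.610).

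Camp encodes the cathelicidin CRAMP, an antimicrobial peptide stored in specific granules, and lies nearby on chr9:109847377-109849456 (minus strand, 4 exons). Camp, Ngp and Ltf fall within 1.20 Mb of chromosome 9. Camp ranged from 3558 to 5160 CPM in aged mice (median 4521) and from 1973 to 4208 in young mice (median 3216). Relative to its mean it was the most variable of the 10 genes in young mice, and young 5 and 6 (2410 and 1973 CPM) lay well below the other 4, of which 2 reached into the aged range. The difference of 0.47 (SE 0.168, adjusted p = 0.0320 by edgeR) lost its call when any of aged replicates 1, 2 and 5 or young replicates 1, 5 and 6 was left out, with adjusted p of 0.0516 to 0.0703 in those 6 fits. Without young 5 and 6 together it was 0.24 (adjusted p = 0.135), and with the length correction -0.054 (adjusted p = 0.659).

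Ltf encodes lactoferrin, the iron-binding protein that defines specific granules, on chr9:111019292-111042766 (plus strand, 17 exons). It ranged from 17457 to 26842 CPM in aged mice (median 20579) and from 20164 to 23723 in young mice (median 21298). The young range lay inside the aged range, and aged replicate 7 held the highest level of all 12 mice. The difference was -0.056 (SE 0.108, adjusted p = 0.699 by edgeR), and it did not pass the test in any of 22 alternatives, which ran from -0.14 to -0.0039. It was -0.097 (adjusted p = 0.544) without young 5 and 6.

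Lcn2 encodes lipocalin 2, which binds bacterial siderophores and so withholds iron, on chr2:32384637-32387739 (minus strand, 6 exons). It ranged from 10209 to 12808 CPM in aged mice (median 11046) and from 7378 to 10321 in young mice (median 8854). Only the top of the young range reached the bottom of the aged range. The difference was 0.35 (SE 0.103, adjusted p = 0.0131 by edgeR), 0.22 (adjusted p = 0.0613) without young 5 and 6, and -0.063 (adjusted p = 0.588) with the length correction.

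Cd177 encodes a surface antigen that neutrophils carry on specific granules and the plasma membrane, on chr7:24743983-24760311 (minus strand, 17 exons). It ranged from 5343 to 6532 CPM in aged mice (median 6116) and from 3879 to 5095 in young mice (median 4815). Every aged mouse was above every young mouse. The difference was 0.37 (SE 0.0875, adjusted p = 0.00344 by edgeR), it passed in all 22 alternatives, and without young 5 and 6 it was 0.27 (adjusted p = 0.0124).

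Chi3l3 (Ym1, also named Chil3), a chitinase-like lectin, on chr3:106147554-106167564 (minus strand, 11 exons), was nearly equal in both ages. It ranged from 3492 to 4960 CPM in aged mice (median 4493) and from 3765 to 4702 in young mice (median 4284), with the young range inside the aged one. The difference was 0.025 (SE 0.0948, adjusted p = 0.848 by edgeR) and turned to -0.054 without TMM factors. It was also -0.054 (adjusted p = 0.698) without young 5 and 6.

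Mmp8, neutrophil collagenase, on chr9:7558429-7568486 (plus strand, 10 exons), ranged from 4230 to 5270 CPM in aged mice (median 4449) and from 3516 to 4961 in young mice (median 4513). The ranges overlapped over most of their length and the aged median was the lower one, although the aged mean was the higher. The difference was 0.12 (SE 0.103, adjusted p = 0.371 by edgeR) and -0.021 without young 5 and 6, which held the lowest Mmp8.

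Mmp9, gelatinase B, is the defining enzyme of tertiary granules, and lies on chr2:164948251-164955846 (plus strand, 13 exons). It ranged from 8546 to 10962 CPM in aged mice (median 9581) and from 6252 to 9167 in young mice (median 8794). Young 5 and 6 (6252 and 6600 CPM) lay far below the other 4 young mice, which overlapped with the aged mice. The difference was 0.25 (SE 0.117, adjusted p = 0.0887 by edgeR), and 0.091 (adjusted p = 0.428) without those 2 libraries.

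Lyz2, lysozyme M, which cleaves bacterial cell walls and is made in both neutrophils and monocytes, lies on chr10:117277541-117282272 (minus strand, 4 exons). It ranged from 8532 to 12749 CPM in aged mice (median 11580) and from 10494 to 15033 in young mice (median 11544). The highest levels were in young replicates 9 and 10 and the lowest in aged replicate 4. The difference was -0.14 (SE 0.116, adjusted p = 0.349 by edgeR), and -0.23 (adjusted p = 0.135) without young 5 and 6. It was called lower with the length correction (-0.47, adjusted p = 0.00270).

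Ltb4r1, the high-affinity receptor for leukotriene B4, a lipid that attracts neutrophils, lies on chr14:55765962-55768492 (plus strand, 2 exons). It ranged only from 419 to 448 CPM in aged mice (median 435) and from 239 to 342 in young mice (median 315). Every aged mouse was above every young mouse. The SD was 11.7 CPM in aged and 40.3 CPM in young mice. Young 5 and 6 (239 and 265 CPM) widened the young spread, and the other young mice lay at 310 to 342 CPM. The difference of 0.52 (SE 0.0824) was the largest of the 10 and had the smallest adjusted p, 0.000246 by edgeR. It passed in all 22 alternatives, and without young 5 and 6 it was 0.39 (adjusted p = 0.000193).

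The difference between ages depended on exon length across all genes. Spearman's rho of log2 fold change with length was -0.48 over the 9742 genes, which are not independent replicates, and shorter genes were higher in aged mice. The granule genes that rose are mostly short. Camp (599 bases), Lcn2 (853), Ngp (1161) and Ltb4r1 (1392) had lengths below the median of 2890 bases, while Cd177 (2714) was close to it. Genes within 10% of a granule gene's length were used as a yardstick. For Camp these had a median log2 fold change of 0.54 and 63.6% were called higher, for Lcn2 0.41 and 54.4%, and for Ngp 0.30 and 42.7%, so that the values of Camp and Lcn2 lay below and that of Ngp slightly above the median of genes of their length. For Ltb4r1 they had a median of 0.28 and 42.0% called higher, and for Cd177 0.018 and 20.9%. Both genes lay above those medians. For Lyz2 the median was 0.35 and for Chi3l3 0.24, and both genes lay below.

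**Figure D2:**
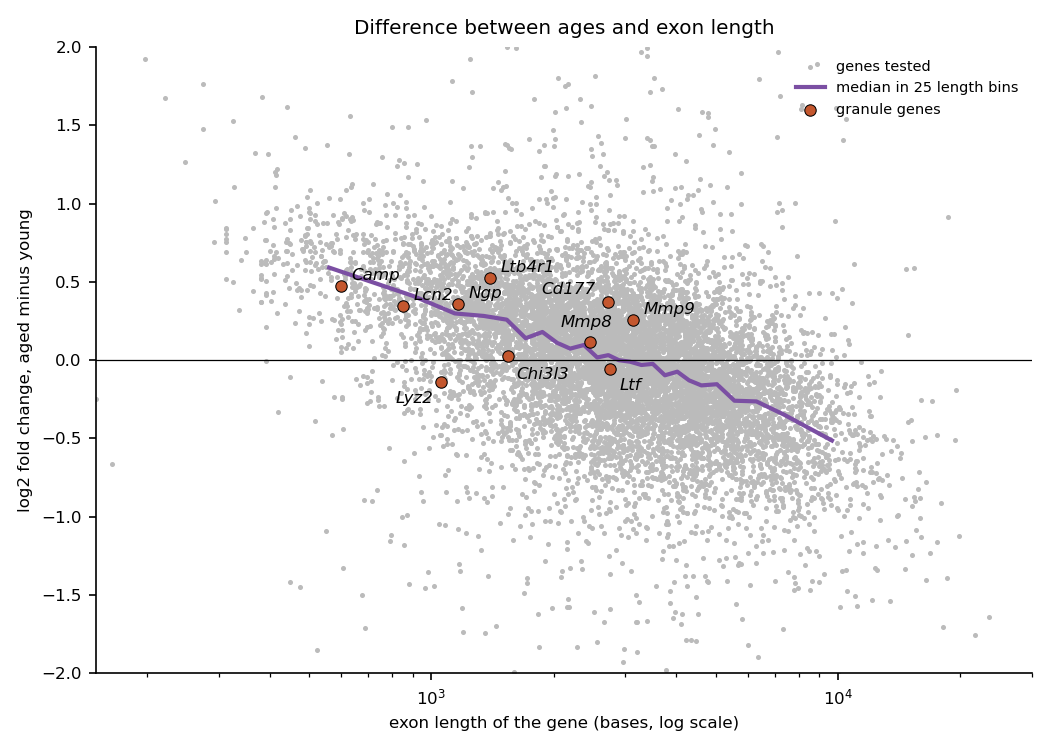
Log2 fold change of aged minus young mice (vertical axis) against exon length in bases (horizontal log axis) for the tested genes (grey), with the median in 25 length bins (line) and the 10 granule genes (labelled points). The axes leave out 70 genes. Camp, Lcn2 and Ngp lie on or near the line, Cd177, Mmp9 and Ltb4r1 lie above it, and Lyz2 and Chi3l3 below it.

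When each library was corrected for its dependence on length, 2 granule genes were called higher, Cd177 (0.35, adjusted p = 0.00512) and Ltb4r1 (0.29, adjusted p = 0.00326), and 1 was called lower, Lyz2 (-0.47, adjusted p = 0.00270, edgeR). With this correction 18.3% of all genes were called higher and 16.6% lower. Camp (-0.054), Lcn2 (-0.063) and Ngp (0.063) fell close to 0, and the change of sign of Camp and Lcn2 was smaller than their standard errors (0.0868 and 0.0847). Mmp9 stood at 0.28 (adjusted p = 0.0767). With the correction and without young 5 and 6, the same 3 granule genes were called in either direction, against 20.6% of all genes, Cd177 at 0.26 (adjusted p = 0.0171), Ltb4r1 at 0.21 (adjusted p = 0.0101) and Lyz2 at -0.47 (adjusted p = 0.00883). All young libraries carry lower sample numbers than all aged libraries in the count table, so that age and whatever these numbers follow, which is not stated, cannot be told apart.

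**Figure D3:**
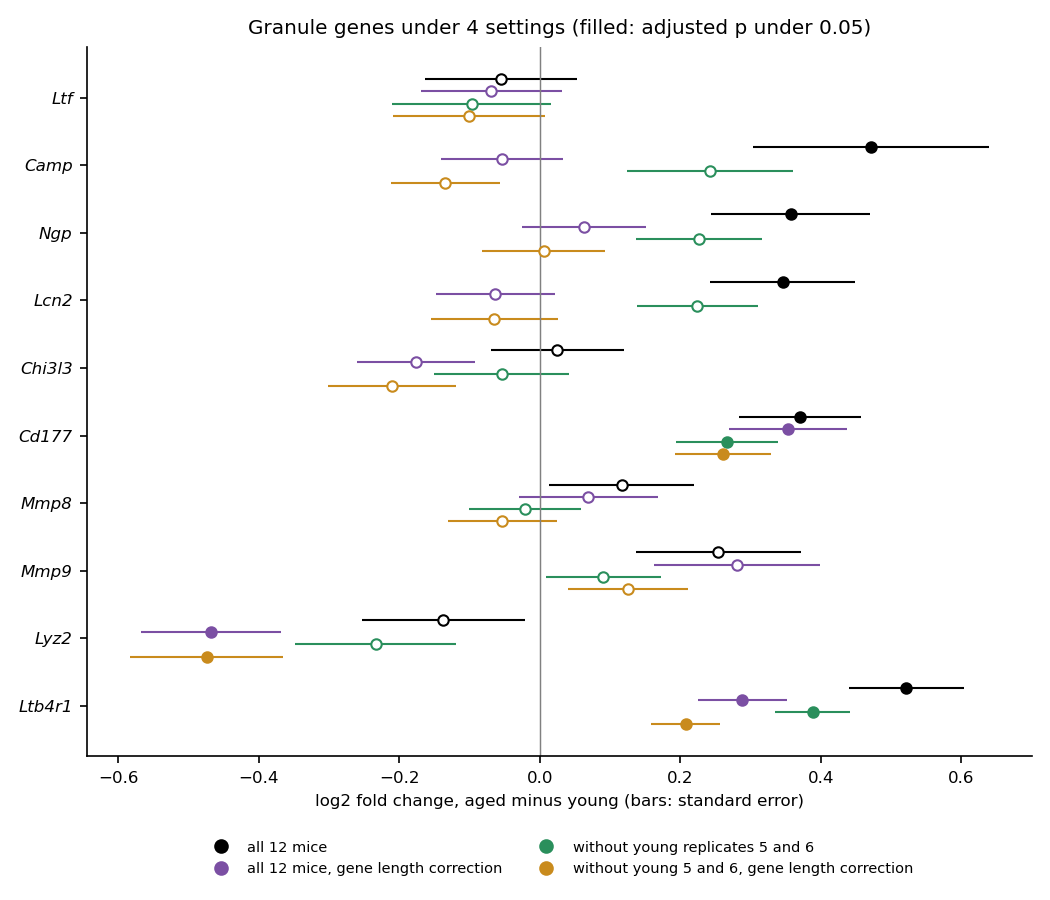
Log2 fold change of aged minus young mice (horizontal axis, bars are standard errors) for each granule gene in 4 settings, filled where the adjusted p was under 0.05. Cd177 and Ltb4r1 are filled to the right of 0 in all 4 settings, Camp, Ngp and Lcn2 in 1, and Lyz2 is filled to the left of 0 in the 2 length-corrected settings.

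Ratios of counts within a mouse do not depend on the scaling of libraries. They do depend on the gene chosen as the denominator. Ltf (-0.056) and Lyz2 (-0.14) were the members with a negative log2 fold change, so that ratios to them favour higher aged values. Ratios to Camp and to Mmp9 overlapped between ages for every other granule gene. Relative to Ltf, 4 of the other 9 genes were higher in every aged than in every young mouse, against 3.07% of all genes and 2.48% of the 1252 genes within 10% of the length of Ltf. The ratio of Cd177 to Ltf, which are nearly equal in length (2714 and 2742 bases), was 0.243 to 0.335 in aged mice (median 0.294) and 0.192 to 0.239 in young mice (median 0.216). The ratio of Ngp to Ltf was 1.65 to 2.10 (median 1.94) and 1.23 to 1.55 (median 1.48). Lcn2 stood at 0.477 to 0.607 of Ltf in aged and 0.357 to 0.444 in young mice, and Ltb4r1 at 0.0156 to 0.0248 and 0.0119 to 0.0155. Ngp, Lcn2 and Ltb4r1 are shorter than Ltf. Among genes within 10% of their own length, 5.68% for Ngp, 8.76% for Lcn2 and 7.14% for Ltb4r1 were higher relative to Ltf in every aged mouse, against 2.44% for Cd177. Relative to Lyz2, 4 of the other 9 genes were likewise higher in every aged mouse, against 10.2% of all genes and 26.7% of the 352 genes within 10% of the length of Lyz2 (1057 bases). They were Ngp (3.23 to 4.02 in aged, 2.36 to 2.75 in young mice), Lcn2 (0.889 to 1.20 and 0.681 to 0.770), Cd177 (0.483 to 0.626 and 0.336 to 0.423) and Ltb4r1. For the last, the ratio of Lyz2 to Ltb4r1 was 19.7 to 30.4 in aged and 35.6 to 44.0 in young mice. The ratio of Ngp to Lcn2 overlapped between ages, at 3.17 to 3.96 in aged and 3.37 to 3.59 in young mice, with medians of 3.46 and 3.47.

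**Figure D4:**
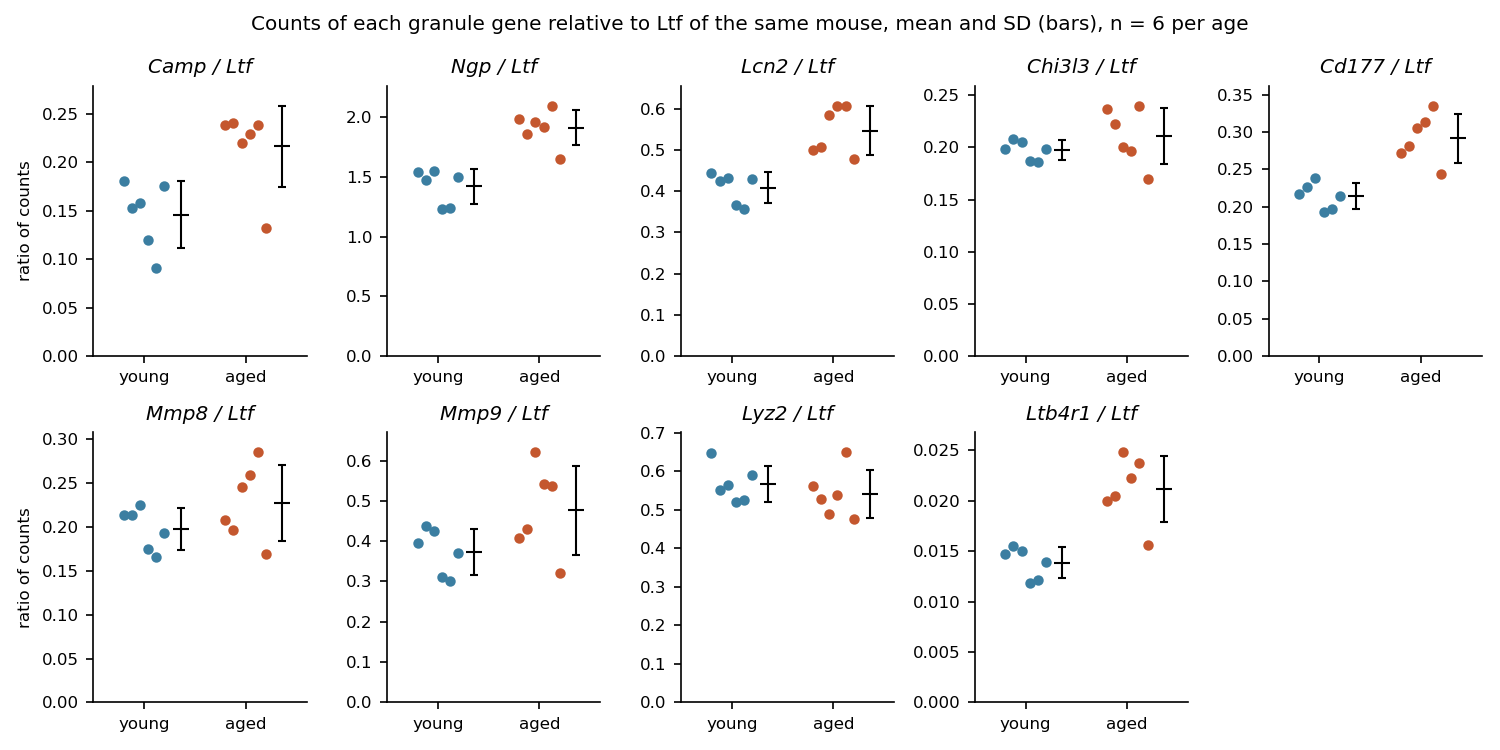
Counts of 9 granule genes divided by those of Ltf in the same mouse (vertical axis, from 0), for 6 young and 6 aged mice (points), with the mean and SD. Ngp, Lcn2, Cd177 and Ltb4r1 separate the ages, with aged ratios of Ngp from 1.65 to 2.10 above young ratios from 1.23 to 1.55.

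The variation among mice of 1 age was shared by some of the granule genes and not by others. After the mean of each age was removed, the mean of Ltf, Camp, Ngp, Lcn2, Cd177 and Mmp8 was compared with each gene over the 12 libraries. These correlations are descriptions, since the libraries share depth and length dependence, and the mean itself had r = -0.75 with the length slope, and -0.47 without young 5 and 6, the libraries farthest from the median. Each gene of the mean was compared with the mean of the other 5, since a gene is correlated with any mean that holds it. Of these, Ngp (r = 0.94), Lcn2 (0.91) and Cd177 (0.90) followed the others most closely, Mmp8 had 0.73 and Camp 0.64, and Ltf (0.39) followed them least. Of the members outside it, Ltb4r1 had 0.85, Lyz2 0.83, Chi3l3 0.69 and Mmp9 0.60, and without young 5 and 6 these stood at 0.66, 0.87, 0.64 and 0.092. Of the genes in the mean, Camp then stood at 0.39, Mmp8 at 0.44 and Ltf at 0.46, while Ngp, Lcn2 and Cd177 kept 0.84 to 0.89. Pairs of genes differed widely, from Lcn2 with Cd177 (r = 0.93) and Ngp with Cd177 (0.89) to Ltf with Camp (0.12), Ltf with Mmp8 (0.065), Chi3l3 with Mmp9 (-0.0036) and Ltf with Mmp9 (-0.21). Over all 12 libraries, Mmp9 varied most closely with Ltb4r1 (0.89) and Mmp8 (0.81). Young 5 and 6 were the lowest young libraries in each of these genes, and the values of pairs are not given without them.

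The 10 genes most like this mean, of 7796 ranked, were 1810037I17Rik (r = 0.99), Sep15 (0.97), Anxa5 (0.97), Anxa3 (0.97), Arhgdib (0.96), Plbd1 (0.96), Aldoa (0.96), Vbp1 (0.96), B3gnt2 (0.95) and Capg (0.95). Anxa3 and Anxa5 encode annexins and Aldoa a glycolytic aldolase. Of all ranked genes, 20.5% had r over 0.5, so that a high r was common in these libraries. Of the 10 genes, 8 stayed in the list without young 5 and 6.

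**Figure D5:**
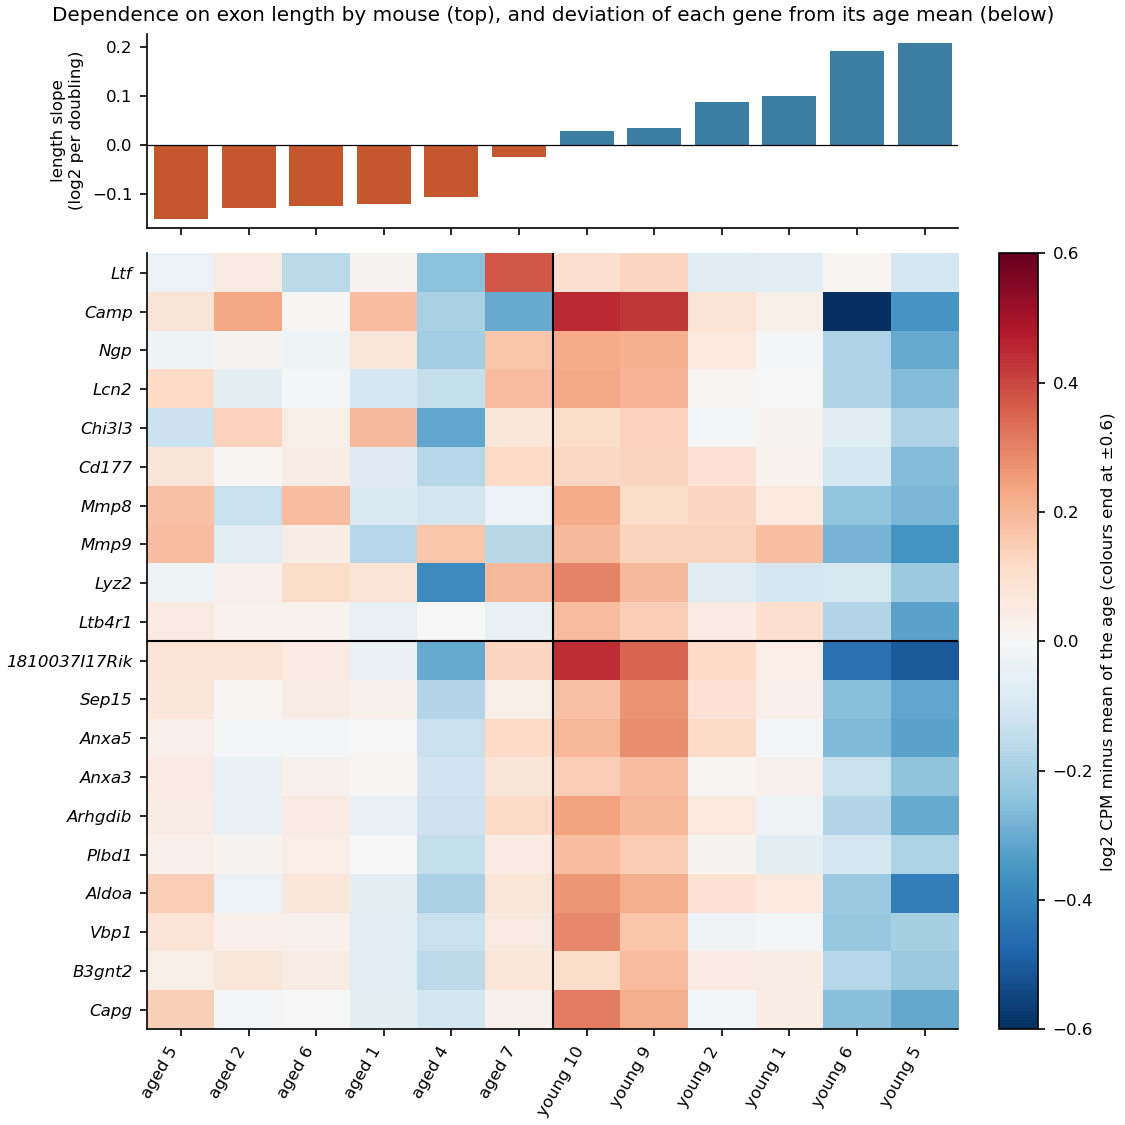
Length slope of each library in log2 units per doubling of exon length (bars), and log2 CPM of each gene minus the mean of its age (colours, which end at 0.6 either way) for the 10 granule genes and the 10 genes most like them. Young 5 and 6, with slopes of 0.21 and 0.19, are the libraries with the bluest columns among the young mice.

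Other genes of the same granules were followed as a list, of which 16 were tested. Of these, 9 were higher and 1 lower in aged mice, against 22.4% and 23.0% of all genes, with a median log2 fold change of 0.22 against 0.0062. Lrg1, a leucine-rich glycoprotein of specific granules, had the largest rise, from 565 ± 97.7 to 1083 ± 222 CPM (SD, n = 6, log2 0.94, SE 0.141, adjusted p = 0.000174 by edgeR). Qsox1, a sulfhydryl oxidase, rose by 0.59 (adjusted p = 0.000378), Hp, haptoglobin, by 0.48 (adjusted p = 0.00446) and Pglyrp1, which binds peptidoglycan, by 0.41 (adjusted p = 0.00405). Olfm4, which marks a subset of neutrophils, was the only gene of the list that fell, from 953 ± 108 to 682 ± 81.4 CPM (-0.48, adjusted p = 0.00106). Lrg1, Qsox1 and Olfm4 kept their calls with the length correction (0.70, 0.64 and -0.66), while Hp stood at 0.24 (adjusted p = 0.0635) and Pglyrp1 at -0.078 (adjusted p = 0.360). With that correction 5 genes of the list were higher and 2 lower, against 18.3% and 16.6% of all genes, and the second lower one was Fcnb, ficolin B, at -0.41 (adjusted p = 0.0402). There were 7 higher and 1 lower without young 5 and 6, against 14.1% and 17.9% of all genes.

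All 9 tested genes of the azurophil granule list were higher in aged mice, against 22.4% of all genes, with a median log2 fold change of 0.66. The list summed to 1134 to 1377 CPM in aged and 676 to 1020 CPM in young mice. Its most abundant gene was Serpinb1a, an inhibitor of the granule serine proteases, at 646 ± 48.7 and 475 ± 38.9 CPM (0.44, adjusted p = 0.000316 by edgeR). With Srgn (344 ± 109 and 218 ± 70.4 CPM) and Cd63 (140 ± 15.5 and 98.2 ± 16.4 CPM) it made up most of the sum. Mpo, myeloperoxidase, stood at only 5.26 ± 1.48 and 2.58 ± 0.768 CPM and Elane, neutrophil elastase, at 3.17 ± 1.21 and 1.34 ± 0.735 CPM. Prtn3, proteinase 3, rose from a range of 0.781 to 2.31 CPM in young mice to 3.69 to 6.01 CPM in aged mice (1.54, adjusted p = 9.54e-05 by edgeR) and Ctsc, the protease that activates the granule serine proteases, from 15.8 ± 2.34 to 49.1 ± 30.8 CPM (1.62, adjusted p = 0.00126). With the length correction 5 of 9 were called higher, Serpinb1a among them, against 18.3% of all genes, and without young 5 and 6, 6 of 9, against 14.1%.

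Of 9 transcription factors of granulocyte formation, 1 rose and 2 fell, shares that do not exceed those of all genes (22.4% and 23.0%). Cebpe, the factor that drives specific granule genes, was at 360 ± 24.6 CPM in aged and 350 ± 33.4 CPM in young mice (0.042, adjusted p = 0.666 by edgeR). Cebpb, a factor of emergency granulopoiesis, fell by 0.43 (adjusted p = 0.0124) and Runx1 fell by 0.25 (adjusted p = 0.00300), while Lmo4 rose by 0.26 (adjusted p = 0.00713). After correction for length Cebpb kept its call (-0.64) and Runx1 turned to 0.12 (adjusted p = 0.151), while Cebpe was called lower at -0.24 (adjusted p = 0.0174). Lmo4 lost its call (0.16, adjusted p = 0.0754), so that none of the 9 was then higher and 2 were lower, against 18.3% and 16.6% of all genes.

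Of 8 tested binding partners and receptors of the granule proteins, 3 rose and 2 fell, against 22.4% and 23.0% of all genes. Fpr2, a receptor for the Camp peptide, rose from 362 ± 56.9 to 576 ± 65.4 CPM (0.67, adjusted p = 0.000261 by edgeR) and Pecam1, a ligand of CD177, rose by 1.07 (adjusted p = 0.000401) at 9.63 ± 1.35 CPM in aged mice. Of the integrin pair with which CD177 associates, Itgam was lower (-0.22, adjusted p = 0.0285) and Itgb2 was at 0.026 (adjusted p = 0.806). The changes of this pair were not compared with each other. Of 9 genes of leukotriene B4 synthesis and signalling, Ltb4r1 included, 5 rose and none fell, among them Alox5ap, which presents arachidonic acid to 5-lipoxygenase (762 ± 142 to 1215 ± 189 CPM, 0.67, adjusted p = 0.000940). Of 6 tested inhibitors and activators of metalloproteinases, none rose and Adam8 fell by 0.43 (adjusted p = 0.0112). Timp1, Timp4 and A2m had at most 3 counts in every library. Of 8 tested paralogs of the members, 2 rose and none fell. After correction for length 3 of the partners and 4 of the leukotriene genes were higher and none lower, against 18.3% and 16.6% of all genes, and Itgam was at -0.052 (adjusted p = 0.563). Under the same correction Adam10 (0.22, adjusted p = 0.0118) and Cd44 (0.40, adjusted p = 0.0107) of the metalloproteinase list were called higher and Adam8 remained lower (-0.41), and 1 paralog was higher. Without young 5 and 6, Itgam (-0.21, adjusted p = 0.0576) was no longer called, and 3 of the partners and 5 of the leukotriene genes were higher and none lower, against 14.1% and 17.9% of all genes.

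Markers of the cell types that the sort could hold were followed beside these results. Their counts stand against 22.4% of all genes called higher and 23.0% lower, 18.3% and 16.6% with the length correction, and 14.1% and 17.9% without young 5 and 6. Of 15 mature neutrophil markers, 7 were higher and 1 lower in aged mice, and their summed level was 57410 to 80722 CPM in aged and 28228 to 57835 CPM in young mice. S100a8 (0.77, adjusted p = 0.00563 by edgeR) and Stfa2l1 (1.18, adjusted p = 0.000928) were among those higher, and Itgal (-0.16, adjusted p = 0.0489) was the lower one. With the length correction 3 of the 15 were higher and 1 lower, the lower one being G0s2 (-0.65, adjusted p = 0.00187), while S100a8 stood at 0.12 (adjusted p = 0.368) and Itgal at 0.050 (adjusted p = 0.602). Of 15 monocyte markers, 2 were higher and 4 lower. The higher ones were Ly6c2, which encodes an antigen of the sort (0.54, adjusted p = 0.00265), and Cd68 (0.83, adjusted p = 0.000342). The lower ones were Klf4 (-1.13, adjusted p = 0.0428), Nr4a1 (-1.07, adjusted p = 0.0126), Ace (-1.28, adjusted p = 0.0128) and Treml4 (-1.13, adjusted p = 0.0163), all by edgeR. After the length correction 1 was higher (Cd68) and 3 lower (Nr4a1, Ace and Treml4), and Ly6c2 was no longer called (0.12, adjusted p = 0.300). All 10 tested markers of resident macrophages were higher, with sums of 149 to 1191 CPM in aged and 102 to 134 CPM in young mice, as were 2 of 3 eosinophil markers. The third, Ear2, was called lower with the length correction (-0.56, adjusted p = 0.00164 by edgeR). Aged replicate 1 stood apart, with the highest aged levels of C1qa (84.7 CPM, aged median 18.4), Cd163 (41.6, median 2.19), Cd74 (662, median 84.0) and Pf4 (14.3, median 1.14). Of 7 tested genes of the dendritic cell list, the 4 higher ones were Cd74, H2-Aa, H2-Ab1 and H2-Eb1, of MHC class II presentation, which macrophages and B cells also express. The lower one was Clec9a, a receptor of cross-presenting dendritic cells (-2.45, adjusted p = 2.89e-05). The tested basophil (1), B cell (2), T and NK cell (2) and megakaryocyte (1) markers did not pass the test, although Kit, the basophil and mast cell marker tested, was called higher with the length correction (0.27, adjusted p = 0.0258). The platelet gene Pf4 was too low to be tested, yet it had 3 to 128 counts in the aged and 0 to 1 in the young mice, and the erythroid gene Alas2 had 3 to 34 and 0 to 2. No erythroid marker was tested, and the hemoglobin genes Hba-a1, Hba-a2 and Hbb-b1 were listed at 0 in all libraries. Hba-a1 and Hba-a2 are annotated over nearly the same span, and fragments that fitted both were not counted, so that the zeros of this pair do not measure its level. Epx and Prg3, which define eosinophils, had at most 3 counts in every library. Of 12 cell division genes, 5 were lower and none higher. Without young 5 and 6, 4 neutrophil markers were higher and 2 lower, 2 monocyte markers were higher and 0 lower, 8 macrophage markers were higher, no eosinophil marker was called and 2 cell division genes were lower. The part of these cell types in the differences of the granule genes was not tested.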

How the data were processed

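RNA from sorted bone marrow M-MDSCs was prepared as stranded TruSeq libraries and sequenced in pairs. The deposited values are raw counts of fragments per gene, which the authors obtained with featureCounts 2.0.0 over the exons of mm10 genes, reverse-stranded, keeping mapping qualities from 60 upwards. Which aligner was used is not given in the sources used here. All 12 libraries were grouped by age from their labels. Of 23420 genes, 15827 had a count and 9742 passed filterByExpr. Counts were fitted in edgeR 4.0.16 (R 4.3.3) scaled by TMM and tested by quasi-likelihood, without covariates, with p-values adjusted by Benjamini-Hochberg over all genes tested (threshold 0.05). CPM used the TMM-scaled totals, log2 CPM a prior count of 2 and ratios an offset of 0.5 counts. Standard errors come from the fold change and the F statistic. The study used DESeq2, which was an alternative here (1.42.0), as were limma-voom (3.58.1), other scalings and filters, thinning to the smallest total, a length correction (lowess span 0.5), a replicate block and leaving out each mouse.

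The members and gene lists were chosen with earlier results of these data known. Named were all members, of each list genes with the largest rise, largest fall or smallest p and some that did not pass, with further genes picked after their values were seen, and the 10 genes most like the granule genes. Among genes with at least 5 CPM on average, likeness was Pearson's r. Library totals limit the precision of genes of few counts, and counting error was small for the members, with at least 1445 counts in every mouse.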

Additional observations from a re-analysis of the deposited data

Results flagged for a closer look

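In 4 of 92 groups of 6 mice tested, 1 mouse lay far from the other 5 of its age, and chance alone gives about 1 in 20 such groups. Among the genes that vary most like the granule genes, Sep15 was at 107 CPM in aged replicate 4 against 122 to 126 CPM in the other aged mice, and Plbd1 was at 1423 CPM in the same mouse against 1573 to 1623 CPM. Itgam, an integrin chain with which CD177 associates, was at 3481 CPM in aged replicate 7 against 2660 to 2867 CPM. Itgal, an integrin chain of leukocytes, was at 625 CPM in aged replicate 1 against 692 to 721 CPM. None of the 10 granule genes had a mouse this far from the others of its age.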

How the results depend on the processing

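Over 22 alternatives, Cd177 and Ltb4r1 were called higher in all, Ngp and Lcn2 in 20, Camp in 15 and Mmp9 in 1, with upper quartile scaling (0.29, adjusted p = 0.0485 by edgeR). With the length correction 2 granule genes were called higher and 1 lower, Camp was at -0.054, Lcn2 at -0.063 and Chi3l3 at -0.18, and 5 of the other granule genes were higher and 2 lower. Chi3l3 was at -0.054 without TMM factors. Leaving out 1 mouse gave 4 to 5 granule genes called higher, against 1864 of 9795 (without young replicate 5) to 2366 of 9804 genes tested (without aged replicate 7), and 0 lower, and Chi3l3 from -0.015 (without aged replicate 1, and likewise negative without young replicate 5) to 0.086 (without aged replicate 4).

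Without young 5 and 6, an alternative added after seeing the data, 2 granule genes were called higher, Chi3l3 was at -0.054 and Mmp8 at -0.021. With the length correction as well, 2 were higher and 1 lower, the median was -0.059, Camp -0.13, Lcn2 -0.065, Chi3l3 -0.21 and Mmp8 -0.053, and of the other granule genes 3 were higher and 1 (Olfm4) lower, against 10.5% of all genes called higher and 20.6% called either way. The cause of these changes was not tested.

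Replicate numbers 1, 2, 5 and 6 occur at both ages, but same-numbered mice did not deviate together (r = -0.14, -0.065, -0.24 and -0.25). These values show no sign of pairing, but they cannot settle whether the mice were paired. With the replicate number as a block in these 8 libraries, 3 granule genes were called higher, Camp moved to 0.84 (adjusted p = 0.00465), Ngp (0.47, adjusted p = 0.0626) and Lcn2 (0.44, adjusted p = 0.0552) were not called, and Lyz2 was at 0.021, and 16.1% of all genes were called higher. The 8 libraries leave out the highest young Camp levels (young 9 and 10, 4155 and 4208 CPM). They also leave out the lowest aged ones (aged 4 and 7, 3833 and 3558 CPM). Whether the block or this choice of libraries moved Camp was not tested.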

Other observations

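Single aged mice differed in which granule genes they held. Aged replicate 7 had the highest Ltf (26842 CPM), Ngp (44393), Lcn2 (12808), Cd177 (6532) and Lyz2 (12749) of the aged mice and the lowest Camp (3558), and its length slope of -0.024 was the nearest to 0 among them. Aged replicate 4 had the lowest Ltf (17457 CPM), Ngp (34273), Lcn2 (10209), Chi3l3 (3492), Cd177 (5343) and Lyz2 (8532) and the Mmp9 level next to the highest (10824). These values were picked after the data were seen and were not tested.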
